A study of Arabidopsis thaliana with 72 samples.

Results

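Subjective dawn was compared with subjective dusk in Arabidopsis seedlings treated with nicotinamide and kept in continuous light. Nicotinamide arrays at 49 and 73 h, which is hour 1 of the 24 h day, were set against those at 61 and 85 h, which is hour 13, with 2 replicate arrays at each time. The comparison therefore used 8 of the 72 arrays of the series, 4 against 4, and these were chosen by treatment and time and by no measured value. The seedlings were C24 wild type grown under alternating 12 h light and 12 h dark for 11 days before continuous light began, and aerial tissue was sampled every 4 h. Untreated C24 wild type and toc1-1, a clock mutant made with EMS whose background accession the labels do not give, were sampled at the same hours and had 8 arrays each. The labels give no dose of nicotinamide and do not say whether the 2 replicate time courses were separate batches of seedlings. The p values therefore reflect only how these arrays scatter. That scatter holds differences between the replicates, which may be technical, and between the 2 cycles pooled in each group. The nicotinamide array of 49 h replicate 1 carries a repeat suffix in its label.

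The plant circadian clock is a network of transcription factors that repress one another in turn over the day, and it sets the hour at which many genes of photosynthesis, starch use, cold response and growth are transcribed. Nicotinamide, a breakdown product of NAD, inhibits ADP-ribosyl cyclase, an enzyme that makes a calcium-releasing signal, and is known to suppress the daily oscillation of free calcium in the cytosol. The series title asks which circadian transcripts are regulated together with that calcium. In wild type plants, genes such as GI and COR27 are known for high levels towards evening.

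All values below are the deposited array signals in linear units or their log2 after adding 16. The 8 arrays had median signals of 18.9 to 31.1, and the lowest was that of 85 h replicate 2. That dusk array also had the lowest median correlation with the other 7, 0.922 against 0.936 to 0.965, and several results are also given without it. The 7 array measures, among them the 3-prime to 5-prime ratios of control transcripts, gave exact two-sided permutation p values of 0.343 to 0.857 between dawn and dusk, where 0.0286 is the smallest that 4 against 4 arrays allow. Summed signals of 8 root markers ran from 1820 to 2860 at dawn and from 1210 to 2800 at dusk under nicotinamide. Of the 7 tested, 0 were without overlap between dawn and dusk, against 5.13% of all probe sets tested. So small a set cannot depart downwards from that share, and the count does not show that root content was even. Nearly all of the summed signal was PYK10, a beta-glucosidase abundant in roots, at 1100 to 2700. Without PYK10 the other 7 markers summed to 87.4 to 164 at dawn and 71.2 to 171 at dusk, and the locus AT4G26010 read 0.395 to 13.8. In untreated seedlings 6 of the 7 tested root markers were higher at dusk by limma, against 6.87% of all probe sets tested, and the 7 without PYK10 summed to 414 to 796 at dawn and 1100 to 1320 at dusk. The part of root tissue in the differences between conditions was not tested, and in whole aerial tissue fewer cells of a type and less RNA per cell cannot be told apart.

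Among probe sets with 1 named gene and no overlap, the largest differences in favour of dawn under nicotinamide were those of AT2G23910, AT2G43550, AT3G28270, AT4G30650 and AT5G62360, followed by COR27, a clock-regulated cold gene. The largest in favour of dusk were those of PRX52, a secreted peroxidase, and WES1, also known as GH3.5, an enzyme that joins auxin to amino acids, with LHCB4.2 and GI among the next. Probe sets without a gene in the annotation reached -1.94 on the dusk side and are not named here. None of these passed the test within nicotinamide seedlings: limma, a linear model with moderated variances, adjusted over 13648 probe sets with Benjamini-Hochberg, called 0 probe sets at an adjusted p under 0.05, and the smallest adjusted p was 0.0509, shared by 11 probe sets. At an unadjusted p under 0.05 there were 980 (7.18% of those tested), 601 higher at dawn (4.4%) and 379 higher at dusk (2.78%). All 4 dawn arrays lay above all 4 dusk arrays for 422 probe sets (3.09%), and all 4 dusk arrays above all 4 dawn arrays for 278 (2.04%), 700 in all (5.13%).

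The count of 0 depended on how the spread was estimated. Without 85 h replicate 2 the same test called 31 probe sets higher at dawn (0.227%) and 17 higher at dusk (0.125%). It called 1 without 61 h replicate 2 and 0 on leaving out any other single array. With the replicate number as a block it called 26 (0.191%) and 10 (0.0733%), and 11 genes named here were among them (adjusted p from 0.0288 to 0.0352). These were AT2G23910, AT2G43550, AT4G30650, AT5G62360, AT1G68500, AT5G09820, AT2G43530, AT4G16146, COR15B and STOMAGEN on the dawn side and AT1G73480 on the dusk side. With the spread taken from all 24 nicotinamide arrays, as 12 time means, it called 81 (0.593%) and 37 (0.271%). With that of all 72 arrays it called 494 (3.62%) and 306 (2.24%). The 72 arrays include untreated and toc1-1 arrays, which scattered less in the fits of 4 against 4, so this spread may be too small for nicotinamide. Untreated seedlings, tested as the nicotinamide seedlings were, gave 833 probe sets higher at dawn (6.1%) and 938 higher at dusk (6.87%), 1771 in all (13%). toc1-1 gave 183 (1.34%) and 159 (1.17%), 342 in all (2.51%). The median absolute log2 difference over all probe sets tested was 0.159 under nicotinamide, 0.151 untreated and 0.112 in toc1-1. Scatter among arrays adds to this measure, and that scatter differed between conditions. The median residual SD, which holds differences between replicates and between cycles, was 0.312 log2 units under nicotinamide, 0.192 untreated and 0.179 in toc1-1. Differences of at least 1 log2 unit numbered 113 under nicotinamide, 371 untreated and 87 in toc1-1.

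AT2G23910 had the largest dawn minus dusk difference of any gene named. Its signal was 388 and 323 in the 2 replicates at 49 h and 178 and 162 at 73 h, against 37.7 and 28 at 61 h and 82.8 and 17.3 at 85 h. Every dawn array was above every dusk array, and the first cycle held the wider gap. The log2 difference was 2.31 ± 0.37 (SE, n = 4 and 4, adjusted p = 0.0595 by limma), while untreated seedlings had 0.04 ± 0.25 and toc1-1 had -0.31 ± 0.16. AT2G43550 read 490, 563, 474 and 600 on the dawn arrays and 133, 190, 80.8 and 201 on the dusk arrays, with no overlap and little change between cycles. Its difference was 1.77 ± 0.26 (adjusted p = 0.0509 by limma, or 0.0224 without 85 h replicate 2), and the sign was the opposite in untreated seedlings, where dusk was higher by the test at -0.81 (adjusted p = 0.0016). The tables used here give these loci no name, so nothing is said of what they do.

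The other dawn-high loci were chosen by size among those without overlap between the groups, so their lack of overlap is no result. AT3G28270 differed by 1.75 ± 0.44, AT4G30650 by 1.70 ± 0.26, AT3G62550 by 1.55 ± 0.37 and AT1G78995 by 1.49 ± 0.31. AT1G68500 differed by 1.48 ± 0.21, AT1G78450 by 1.43 ± 0.31, AT5G09820 by 1.30 ± 0.17 and AT2G43530 by 1.27 ± 0.17. The adjusted p by limma was 0.0509 for AT1G68500, AT5G09820 and AT2G43530, and between 0.0586 and 0.256 for the other 5. Without 85 h replicate 2, AT4G30650, AT1G68500, AT5G09820 and AT2G43530 passed, with adjusted p values from 0.0165 to 0.0329. A few named genes just below this rank were picked after their values were seen. STOMAGEN, a secreted peptide that promotes stomata, read 127, 100, 83.1 and 103 at dawn and 45.7, 31.1, 34.1 and 41.4 at dusk, a difference of 1.14 ± 0.17. THIC, an enzyme of thiamine synthesis, differed by 0.94 ± 0.19 and the serine carboxypeptidase-like gene SCPL34 by 1.19 ± 0.24, both without overlap. STOMAGEN and THIC passed without 85 h replicate 2 (adjusted p = 0.0361 and 0.0414), and SCPL34 did not.

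**Figure D1:**
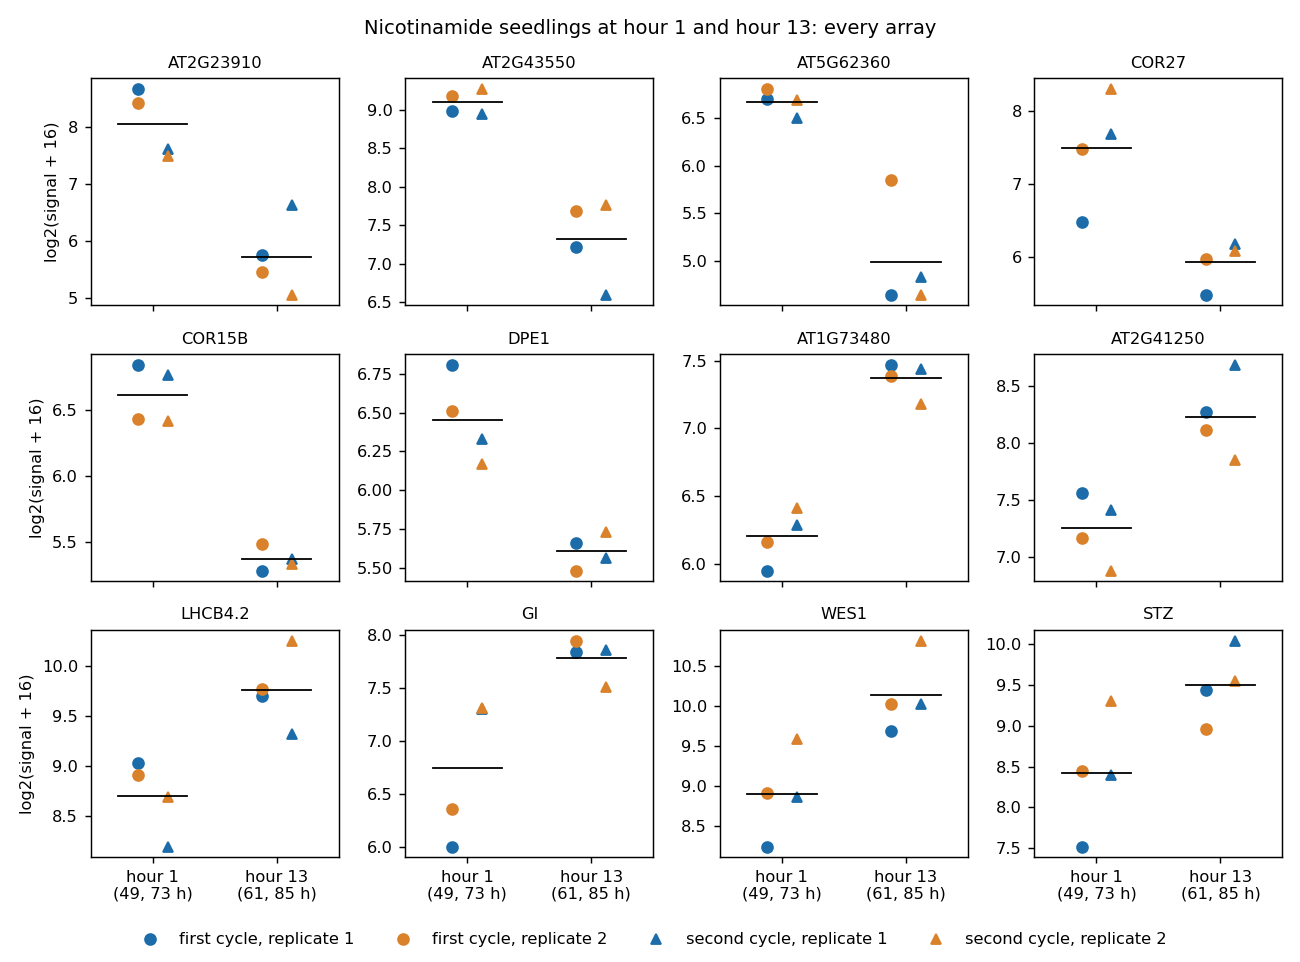
Each point is 1 nicotinamide array, with log2(signal + 16) on the vertical axis and the hour on the horizontal axis; circles are the first cycle, triangles the second, blue replicate 1, orange replicate 2, and bars the means of 4 arrays. The groups do not overlap in any panel except STZ, and GI at hour 1 splits by cycle.

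Among clock-linked genes, COR27 and GI differed in opposite senses. COR27 read 72.5 and 162 at 49 h and 190 and 300 at 73 h, but 28.6 and 46.5 at 61 h and 56.6 and 51.8 at 85 h. The dawn arrays were all above the dusk arrays, with 49 h replicate 1 closest to them. The difference was 1.56 ± 0.35 (adjusted p = 0.206 by limma), 1.25 in the first cycle and 1.86 in the second. Untreated seedlings had the reverse: COR27 averaged 7.17 ± 5.49 at dawn and 241 ± 72.8 at dusk (SD, n = 4), a called difference of -3.47 (adjusted p = 1.1e-08). The conditions differed by 5.02 ± 0.43 in this contrast, which passed the test (adjusted p = 1.1e-06).

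GI, a large nuclear protein that acts in the evening clock and in photoperiodic flowering, was higher at dusk on every nicotinamide array. Its signal was 48 and 66.1 at 49 h and 141 and 142 at 73 h, then 212 and 231 at 61 h and 216 and 166 at 85 h. The 2 times that make up the dawn group were far apart, so the difference was -1.71 in the first cycle and -0.38 in the second, and -1.05 ± 0.30 in all (adjusted p = 0.354). Untreated seedlings had -2.08, with 38.2 ± 9.45 at dawn and 212 ± 28.8 at dusk (SD, n = 4). The dusk means of the 2 conditions were thus close, and the dawn mean was the higher with nicotinamide. The difference between conditions, 1.03 ± 0.35, did not pass (adjusted p = 0.119), though it did without 49 h replicate 1 (adjusted p = 0.0145).

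CCL, a CCR-like gene whose transcript is known to cycle strongly, had almost no contrast under nicotinamide. The dawn arrays read 1167, 1357, 2483 and 2061 and the dusk arrays 1518, 2044, 1708 and 1181, which overlap fully. Its difference was 0.09 ± 0.26 under nicotinamide and -3.47 in untreated seedlings, where dawn averaged 308 ± 115 and dusk 3410 ± 459 (SD, n = 4). The difference between the conditions was 3.56 ± 0.38 (adjusted p = 1.2e-05). AFR, an F-box protein of far-red light signalling, was the converse: -0.20 ± 0.19 under nicotinamide against a called 1.80 untreated, and the conditions differed by -2.01 ± 0.23 (adjusted p = 3.3e-05). TIC, a regulator of clock phase, had 0.08 ± 0.17 under nicotinamide and -0.12 untreated, neither of which passed. COR28, CDF5 and RVE6 were not analysed here, since the annotation used pairs no probe set with those names.

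Over the whole course, averaged over both cycles, the hours of highest level also differed between conditions for these genes. COR27 was highest at hour 21 under nicotinamide and at hour 13 untreated, CCL at hours 21 and 13, and GI at hours 21 and 9. For COR27 the nicotinamide means at hours 21 and 1 were nearly equal, at 7.51 and 7.48 in log2 units. GI reached its highest nicotinamide mean at 69 h, 8.56 in log2 units, and had dropped to 7.30 by 73 h. COR27 was highest at 73 h, at 7.99, and lowest at 61 h, at 5.72. CCL was highest at 65 h, at 11.77, and stood at 10.80 at 61 h and 11.15 at 73 h. Its 2 compared hours thus fell on either side of a maximum. These are means of 2 arrays a time, given as a description.

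**Figure D2:**
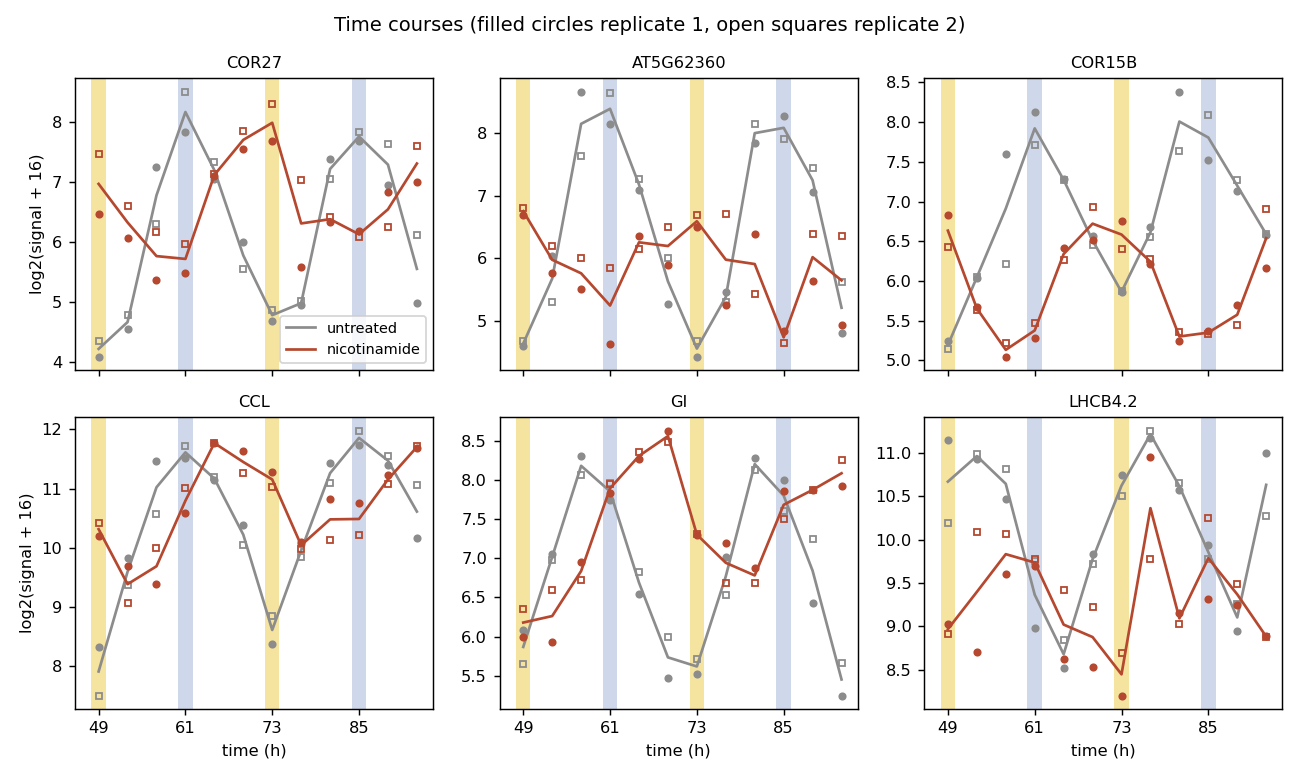
Log2(signal + 16) of 6 genes against time in hours in untreated (grey) and nicotinamide (red) seedlings; lines join means of 2 arrays, circles are replicate 1 and squares replicate 2, with yellow bands at hour 1 and blue bands at hour 13. COR27, AT5G62360 and COR15B are high in the yellow bands under nicotinamide and in the blue bands when untreated, while GI is high in the blue bands in both.

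AT5G62360 had the largest difference between conditions among named genes. Under nicotinamide its dawn arrays read 87.7, 96.3, 74.5 and 87.1 and its dusk arrays 8.89, 41.8, 12.5 and 8.97, where 41.8 at 61 h replicate 2 stood apart from the other 3. The difference was 1.68 ± 0.26 (adjusted p = 0.0595 by limma). Without that array the adjusted p by limma was 0.0153, and the test then called 1 probe set in all. That lower p follows from leaving out this gene's own highest dusk value and is no further support. Untreated seedlings went the other way, from 8.28 ± 1.93 at dawn to 291 ± 67.1 at dusk (SD, n = 4). The dawn minus dusk values differed between conditions by 5.32 ± 0.32 (adjusted p = 5.6e-08).

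Cold-response genes had a median difference of 0.74 over the 5 tested, against 0.04 over all probe sets tested. Without 85 h replicate 2 that median was 0.29, and it was 0.26 in the first cycle and 1.22 in the second. COR15B, a small chloroplast protein that protects membranes in the cold, read 98.3, 70.4, 92.4 and 69 at dawn and 22.9, 28.5, 25.5 and 24.2 at dusk. Its groups were far apart and its replicates close, giving 1.25 ± 0.16 (adjusted p = 0.0509 by limma, or 0.0286 without 85 h replicate 2). In untreated seedlings COR15B averaged 31.4 ± 12.5 at dawn and 220 ± 47.0 at dusk (SD, n = 4), and the conditions differed by 3.58 ± 0.27 (adjusted p = 3e-07). COR47, a dehydrin, had 0.74 ± 0.40 with overlapping groups, or 0.29 without 85 h replicate 2, and differed from untreated by 2.22 ± 0.47 (adjusted p = 0.0075). COR15A, the close relative of COR15B, had 0.88 ± 0.33 with overlap.

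STZ, also called ZAT10, a zinc finger repressor induced by many stresses, lay on the dusk side. It read 168, 334, 319 and 614 at dawn and 673, 484, 1039 and 734 at dusk, so that 73 h replicate 2 passed the lowest dusk array. The difference was -1.08 ± 0.36 (adjusted p = 0.451 by limma). Its untreated value was -0.26 and the difference between conditions did not pass (adjusted p = 0.42).

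Of the dusk-high genes without overlap, AT1G73480 had the smallest adjusted p. It read 45.8, 55.4, 62.2 and 69.1 on the dawn arrays and 162, 152, 157 and 129 on the dusk arrays. The difference of -1.17 ± 0.16 had an adjusted p of 0.0509 by limma, or 0.0224 without 85 h replicate 2, and the gene had 0.12 in untreated seedlings and a called 1.20 in toc1-1. PRX52 read 25.5, 53.8, 66 and 70.8 at dawn and 87.3, 77.7, 224 and 267 at dusk, so the gap at 61 h was narrow and that at 85 h wide. Its difference was -1.25 ± 0.39. AT4G27280 had -1.17 ± 0.26, AT4G29780 -1.02 ± 0.22, AT3G56880 -1.01 ± 0.25 and AT1G77640 -0.99 ± 0.24. AT4G39670 had -0.98 ± 0.25 and AT1G35710 -0.98 ± 0.35. Adjusted p values of these 7 ran from 0.179 to 0.532.

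Auxin genes had a median of -0.20 over 5 tested. WES1 read 287, 464, 450 and 757 at dawn and 809, 1021, 1019 and 1790 at dusk. The groups did not overlap, yet replicate 2 was above replicate 1 at every time, and the second cycle above the first. The difference was -1.23 ± 0.31 (adjusted p = 0.256 by limma), and that between conditions, -0.81 ± 0.38, did not pass. GH3.17, a further enzyme that conjugates auxin, had -0.64 ± 0.17 without overlap.

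Antenna genes of the LHCB4 family, which encode the minor light-harvesting protein CP29, lay on different sides of 0. LHCB4.2 read 506, 464, 278 and 397 at dawn and 814, 860, 623 and 1204 at dusk, all dusk arrays above all dawn arrays. Its difference was -1.05 ± 0.25 (adjusted p = 0.233 by limma), while untreated seedlings had a called 1.04, with dawn at 1640 ± 466 and dusk at 790 ± 209 (SD, n = 4). The conditions differed by -2.09 ± 0.36 (adjusted p = 0.0014). LHCB4.3 lay on the dawn side in both: 472, 349, 371 and 349 at dawn against 235, 182, 244 and 311 at dusk, a difference of 0.64 ± 0.20, with 1.14 untreated. LHCB4.1 had -0.12 ± 0.19. Nuclear photosystem subunits had a median of -0.11 over 5 tested, with 0 without overlap, against 5.13% of all tested. A set of 5 cannot depart downwards from that share.

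Chlorophyll synthesis genes had a median of 0.21 over 8 tested, with 6 of the 8 above 0, against 56.1% of all tested, and 1 with dawn above dusk without overlap, against 3.09%. The median was 0.46 in the first cycle, 0.09 in the second and 0.35 without 85 h replicate 2. PORB, the light-dependent protochlorophyllide reductase, read 185, 236, 174 and 225 at dawn and 80, 87.4, 109 and 180 at dusk. Only the dusk array of 85 h replicate 2 reached into the dawn range, and the difference was 0.81 ± 0.24 (adjusted p = 0.367 by limma), or 1.03 without that array (adjusted p = 0.0479). Untreated seedlings had a called -1.02, and the conditions differed by 1.84 ± 0.30 (adjusted p = 0.00072). CHLI2, a subunit of magnesium chelatase, had 0.52 ± 0.19 without overlap, and HEME1, a porphyrin-pathway decarboxylase, had 0.65 ± 0.23 with overlap.

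Starch genes lay above 0 in all 5 tested, against 56.1% of all probe sets. Their median was 0.09, with 0.06 in the first cycle and 0.50 in the second. The lowest member had 0.02. The dim genes APL3 and APL4 had 0.055 ± 0.233 and 0.088 ± 0.200, and the sign of each differed between replicates. DPE1, a plastid glucanotransferase of starch breakdown, read 96, 74.9, 64.4 and 55.8 at dawn and 34.7, 28.6, 31.3 and 37.2 at dusk. It had no overlap, a difference of 0.84 ± 0.17 (adjusted p = 0.168 by limma) and a difference from untreated of 2.31 ± 0.22 (adjusted p = 3.4e-06), where untreated seedlings had -1.47. PWD, a kinase that phosphorylates starch granules, had 0.94 ± 0.32 with overlap, and differed from untreated by 1.46 ± 0.39 (adjusted p = 0.038), a call lost on leaving out 49 h replicate 1 or 2, 61 h replicate 2 or 73 h replicate 1 (adjusted p from 0.0708 to 0.0838). SBPASE of the Calvin cycle had 0.54 ± 0.19 and the sugar transporter SWEET1 had 0.58 ± 0.17, both without overlap. ICL, the isocitrate lyase of fat use, had -0.72 ± 0.27 with overlap.

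Beta-tubulins were among the control transcripts, 19 tested with a median of -0.07, or 0.03 without 85 h replicate 2. Of these 19, 8 were above 0, and the 4 named here are those of smallest p. TUB5 read 221, 218, 210 and 212 at dawn, which is a narrow band, and 115, 98, 83.6 and 186 at dusk, where 85 h replicate 2 was nearest to dawn. The difference was 0.81 ± 0.22 (adjusted p = 0.318 by limma), or 1.02 without that array (adjusted p = 0.0346). TUB9 had 0.51 ± 0.16 without overlap and TUB1 0.62 ± 0.21 with overlap. All 3 differed from untreated seedlings, where each was higher at dusk by the test: TUB5 by 1.88 ± 0.25, TUB9 by 0.99 ± 0.19 and TUB1 by 1.21 ± 0.24. TUB6 had 0.39 ± 0.22 with overlap and -0.28 untreated, and neither passed. Its difference between conditions, 0.675 ± 0.241, did not pass either (adjusted p = 0.157 by limma).

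Plastid-encoded transcripts were above 0 in 53 of 67 tested, against 56.1% of all probe sets, and the median was 0.30, or 0.00 without 85 h replicate 2. For 2 of the 67 the groups did not overlap, against 5.13% of all tested. The transcript petG, which encodes a small subunit of the cytochrome b6f complex, read 410, 375, 321 and 312 at dawn and 236, 154, 190 and 125 at dusk, a difference of 0.97 ± 0.21 without overlap (adjusted p = 0.179 by limma).

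**Figure D3:**
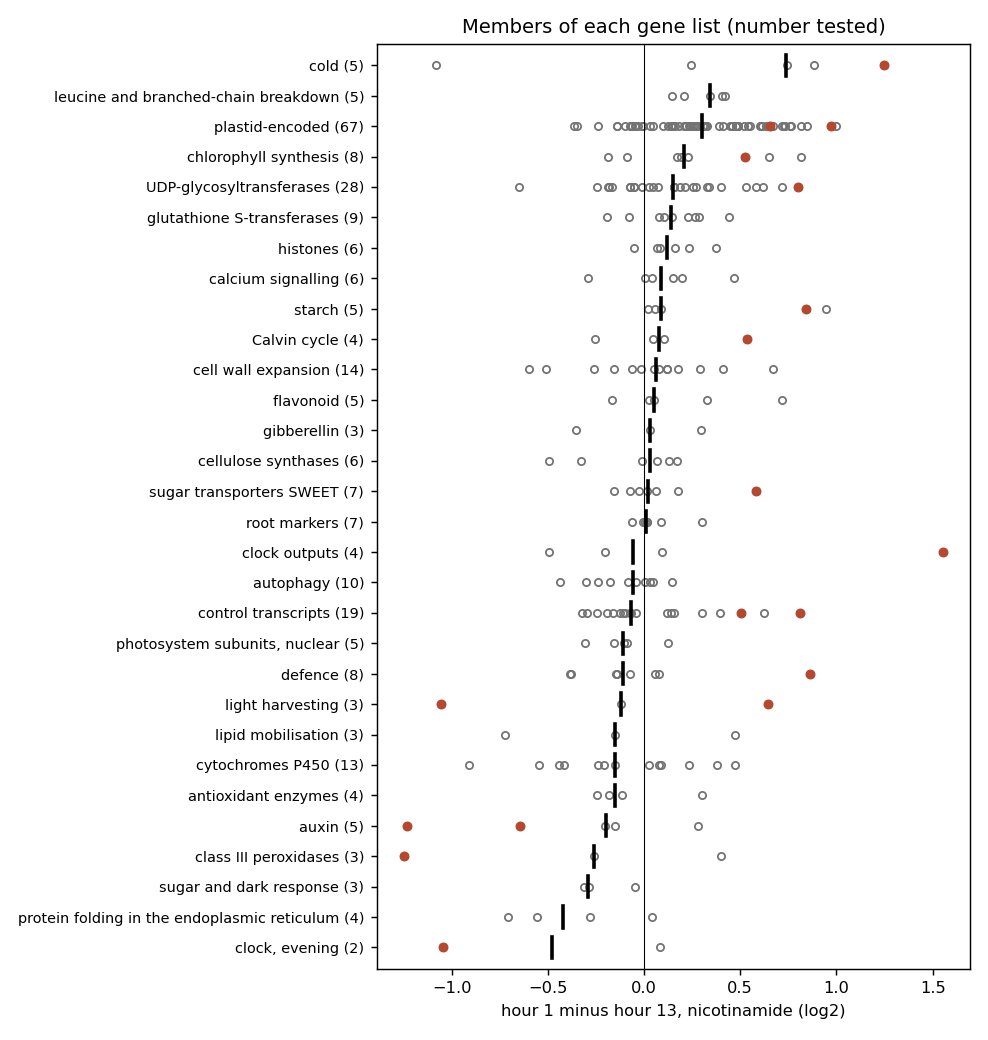
Each row is a gene list with at least 2 tested members, ordered by its median (black bar); each circle is a gene's log2 difference, hour 1 minus hour 13, under nicotinamide, filled where the 4 and 4 arrays do not overlap. The median of cold genes is 0.74, but 0.29 without 85 h replicate 2, and within light harvesting, auxin and cold genes single members lie far from the rest.

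Other groups are given by their medians, against 0.04 over all probe sets tested. UDP-glycosyltransferases, which attach sugars to small molecules, had a median of 0.15 over 28 tested, with UGT71B1 highest at 0.80 ± 0.17 and without overlap. Glutathione S-transferases had 0.14 over 9, or -0.06 without 85 h replicate 2. The median was 0.12 over 6 histones, 0.06 over 14 expansins and other wall-loosening genes, and -0.06 over 10 autophagy genes. Genes of protein folding in the endoplasmic reticulum lay further on the dusk side, with a median of -0.42 over 4 tested, -0.54 in the first cycle, -0.44 in the second and -0.50 without 85 h replicate 2. None of the 4 passed the test, with the calreticulin CRT1b at -0.56 ± 0.20 and the unfolded-protein regulator BZIP60 at -0.71 ± 0.29, both with overlap. The flavonoid list had 0.05 over 5. Its lowest member, CHI at -0.17, is the locus AT2G43570, which was matched by name and may not be a flavonoid gene. UF3GT, a glycosyltransferase of anthocyanin synthesis, had 0.05 ± 0.18 under nicotinamide against a called 1.74 untreated. Its nicotinamide signal was low, averaging 7.21 ± 4.89 at dawn and 6.08 ± 2.08 at dusk (SD, n = 4). Untreated seedlings averaged 197 ± 82.3 at dawn and 45 ± 9.38 at dusk. Fold changes are understated at so low a signal, so the nicotinamide value cannot tell a lost contrast from a low level. The difference of UF3GT between conditions was -1.69 ± 0.31 (adjusted p = 0.0024 by limma). The part of the low level in that difference was not tested. QPT, quinolinate phosphoribosyltransferase of the de novo route to NAD, split by replicate instead of by hour. It read 300, 94.3, 204 and 51.6 at dawn and 259, 134, 100 and 14.5 at dusk, with replicate 1 above replicate 2 at every time and a difference of 0.46 ± 0.66, or -0.16 without 85 h replicate 2.

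The untreated contrast was then used to sort transcripts, and their nicotinamide values, from other arrays, were read. Of the 190 probe sets that untreated seedlings held higher at dusk by at least 1 log2 unit, the median was -1.32 untreated and 0.37 under nicotinamide, with quartiles of -0.01 and 0.77. In this set 140 (73.7%) were above 0 under nicotinamide, against 56.1% of all tested. All dawn arrays were above all dusk arrays for 43 (22.6%), against 3.09% of all tested, and the reverse held for 3 (1.58%). The median was 0.13 in the first cycle, 0.58 in the second and 0.33 without 85 h replicate 2. The root markers called at dusk in untreated seedlings, at -0.67 to -0.86, were below this minimum size. Other root transcripts may lie above it, and the part of root tissue in this set was not tested.

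The opposite set lay nearer to 0 under nicotinamide. Of 179 probe sets higher at dawn untreated by at least 1 log2 unit, the median was 1.35 untreated and -0.13 under nicotinamide, with quartiles of -0.36 and 0.09, and 60 (33.5%) were above 0. The median was -0.02 in the first cycle, -0.22 in the second and -0.17 without 85 h replicate 2. Dusk arrays were all above dawn arrays for 17 (9.5%), against 2.04% of all tested, and the reverse held for 1. With all called probe sets and no minimum size, the nicotinamide medians were 0.12 for the 938 higher at dusk and 0.00 for the 833 higher at dawn. That of the 938 was -0.04 in the first cycle and 0.27 in the second.

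**Figure D4:**
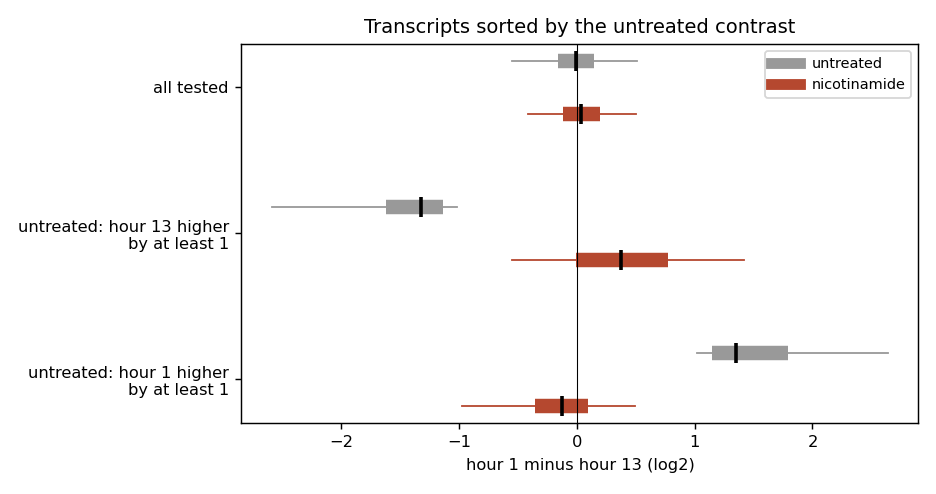
Hour 1 minus hour 13 in log2 units, for all tested probe sets and for those called in untreated seedlings with a difference of at least 1; thick bars span the quartiles, thin lines the 5th to 95th percentiles, and ticks mark medians. The set with a median of -1.32 untreated has 0.37 under nicotinamide, and the set with 1.35 untreated has -0.13.

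The difference between conditions was also tested directly over 16 arrays. The dawn minus dusk value was higher under nicotinamide than in untreated seedlings for 361 probe sets (2.65%) and lower for 287 (2.1%), at an adjusted p under 0.05, 648 in all (4.75%). Of the 361, 346 were above 0 under nicotinamide and below 0 untreated. In 148 all dawn arrays lay above all dusk arrays under nicotinamide, against 3.09% of all tested. Of the 287, 262 were below 0 under nicotinamide and above 0 untreated. In 78 all dusk arrays lay above all dawn arrays under nicotinamide, against 2.04% of all tested. The signs of these values and the counts without overlap follow in part from the choice by difference, which used the same nicotinamide arrays.

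The highest differences after AT5G62360 were those of AT3G62550, COR27, AT4G32340, AT4G16146 and AT4G30650. AT3G62550 differed by 5.30 ± 0.45, AT4G32340 by 4.23 ± 0.37, AT4G16146 by 3.88 ± 0.28 and AT4G30650 by 3.85 ± 0.33. Each was higher at dawn on all 4 nicotinamide arrays and higher at dusk by the test when untreated. The gap of AT3G62550 grew from 0.63 in the first cycle to 2.46 in the second, while that of AT4G16146 was 1.20 and 1.18. Within nicotinamide AT4G16146 and AT4G30650 passed when 85 h replicate 2 was left out (adjusted p = 0.0479 and 0.021).

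The lowest were AT2G15020 at -3.28 ± 0.39, AT2G41250 at -3.07 ± 0.27, AT1G64500 at -2.90 ± 0.30, AT5G35970 at -2.87 ± 0.36, AT1G55960 at -2.81 ± 0.43 and AT5G48490 at -2.75 ± 0.37. All 6 were higher at dawn by the test when untreated, but under nicotinamide they were of 2 kinds. AT2G41250 had the opposite sign: its dawn arrays read 173, 128, 154 and 102 and its dusk arrays 292, 262, 398 and 214, a difference of -0.98 ± 0.23 without overlap, where untreated seedlings had 264 ± 40.0 and 49.9 ± 10.5 (SD, n = 4). AT2G15020 was instead high at both hours. It read 234, 284, 145 and 189 at dawn and 123, 175, 321 and 334 at dusk, a difference of -0.08 ± 0.32, where untreated dusk arrays averaged 15.2 ± 6.48 and dawn arrays 269 ± 54.9 (SD, n = 4). Its sign changed between cycles, 0.75 in the first and -0.92 in the second. The other 4 had overlapping groups and values of -0.42 to -1.01.

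**Figure D5:**
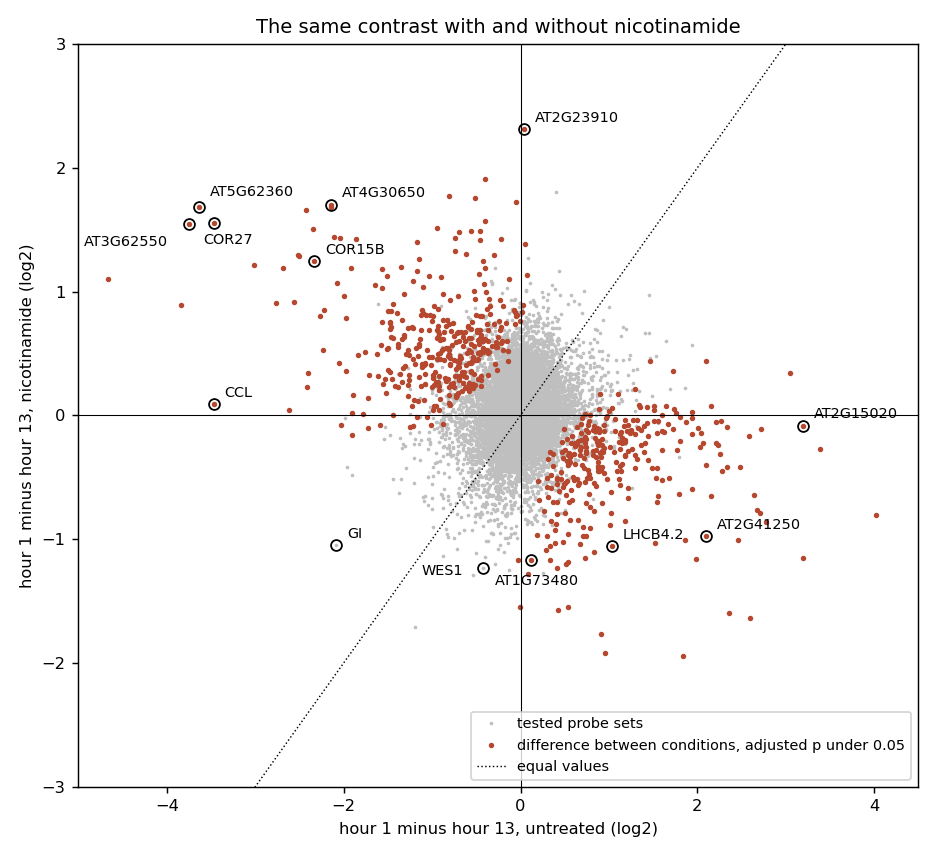
Hour 1 minus hour 13 in log2 units under nicotinamide (vertical) against untreated (horizontal) for the 13648 tested probe sets; red marks the 648 whose difference between conditions passed the test, and rings mark named genes. Red points lie mostly in the upper left and lower right, COR27 at -3.47 and 1.56, and GI lies apart at -2.08 and -1.05.

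Against toc1-1, a mutant known for a short period, 172 probe sets (1.26%) had a higher dawn minus dusk value under nicotinamide and 108 (0.791%) a lower one, 280 in all (2.05%). Both comparisons use the same 8 nicotinamide arrays. The 280 became 488 without 85 h replicate 2 and 185 without 49 h replicate 2. The highest were AT4G32340 at 3.45, AT5G62360 at 3.13, COR27 at 3.03, AT3G28270 at 3.01, AT3G62550 at 2.95 and AT4G16146 at 2.93. In toc1-1 itself the value of AT3G28270 was a called -1.25, while those of COR27, -1.48, and AT5G62360, -1.45, did not pass. The lowest were LHCB4.2 at -2.43, AT5G35970 at -2.38, AT1G73480 at -2.37, AT2G41250 at -2.37, AT1G61500 at -1.92 and AT1G69570 at -1.71. The call of AT1G61500 was lost without 49 h replicate 2 or 61 h replicate 2. AT1G69570 read 18.2, 17.2, 26 and 11.8 at dawn and 82.3, 79, 86.3 and 23.2 at dusk under nicotinamide, so that 85 h replicate 2 alone reached the dawn range. Its difference was -1.20 ± 0.30, or -1.54 without that array (adjusted p = 0.0165 by limma).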

How the data were processed

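The deposited intensity values are linear. Per the submitters' processing notes, MAS5 and GCOS were the authors' tools, with no version stated. Each array was scaled so that its mean without the highest and lowest 2% of probe sets was 100 signal units, as checked on the values. Signals were taken as log2(signal + 16), so fold changes of dim transcripts are understated. Of 22810 probe sets, 64 controls were left out and the upper 60% by mean over 72 arrays were tested. limma 3.58.1 in R 4.3.3 and data.table, version 1.17.8, was used, with variances moderated along an intensity trend (degrees of freedom 6 residual, 4.04 prior) and Benjamini-Hochberg adjustment. Differences between conditions are interaction contrasts over 16 arrays. SE are those of the fit. Replicate numbers come from the labels, which name no shared batch; deviations of same-numbered nicotinamide arrays correlated at 0.407 to 0.655 in 6 pairs of times, so values with the replicate number as a block are also given. The fits were tested on simulated data. Gene names came from the supplied annotation, where 13513 probe sets have 1 gene, 503 several and 8794 none listed; 13436 were matched to reference names. Named genes are the 12 highest and 12 lowest differences without overlap between the groups, up to 4 members a list by smallest p, the 6 highest and 6 lowest called differences between conditions, and a few fixed clock-linked genes; STOMAGEN, SCPL34 and THIC lie outside this rule. Gene lists with a tested member number 34, 30 with at least 2, and hold 273 genes, each by its brightest probe set. The members and lists were chosen with earlier results of these data known. Precision depends on how many arrays there are, since arrays carry no read depth. The gene mutated in toc1-1 is not reported here. Alternatives were other scaling, pseudocounts, filters, thresholds, terms, arrays and weights.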

Additional observations from a re-analysis of the deposited data

Results flagged for a closer look

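In a group of 4 arrays, a value was marked where its gap to the nearest other, as a share of the group's range (in brackets below), was above Dixon's 95% critical value. Chance marks about 1 in 20 groups, and 7 of 158 were marked. All 7 were dusk groups under nicotinamide, and 3 of them, with AT1G69570 (0.923), GH3.17 (0.863) and TIC (0.846), had 85 h replicate 2 lowest. That array's median correlation with the others stood apart as well (0.86). The others were AT5G62360 at 61 h replicate 2 (0.841, high), AT4G39670 (0.869, low) and AT4G16146 (0.842, high) at 85 h replicate 1.

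The other results marked are differences of the dawn minus dusk value between nicotinamide and untreated seedlings that passed limma's interaction test, 648 probe sets in all. In log2 units the positive ones among named genes were AT5G62360 5.32, AT3G62550 5.30, COR27 5.02, AT4G32340 4.23, AT4G16146 3.88, AT4G30650 3.85, COR15B 3.58, CCL 3.56, AT2G43550 2.58, AT2G43530 2.41, DPE1 2.31, AT2G23910 2.27, AT3G28270 2.27, COR47 2.22 and AT1G68500 2.18. Smaller positive values were AT1G78995 1.95, TUB5 1.88, PORB 1.84, AT1G78450 1.65, AT5G09820 1.60, SCPL34 1.59, PWD 1.46, THIC 1.29, TUB1 1.21, STOMAGEN 1.07, TUB9 0.99 and UGT71B1 0.85. Negative values were AT2G15020 -3.28, AT2G41250 -3.07, AT1G64500 -2.90, AT5G35970 -2.87, AT1G55960 -2.81, AT5G48490 -2.75, LHCB4.2 -2.09, AFR -2.01, AT1G69570 -1.72, AT1G35710 -1.71, UF3GT -1.69, AT4G27280 -1.51, AT4G29780 -1.50 and AT1G73480 -1.28. Of the 7 root markers tested, 0 had a called difference between these conditions, against 4.75% of all tested. So small a set cannot depart downwards from that share, and the count does not show that the conditions were alike. The median of these markers was 0.01 under nicotinamide and -0.81 untreated.

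Against toc1-1 the test called 280 probe sets. The values for the genes named there were AT4G32340 3.45, AT5G62360 3.13, COR27 3.03, AT3G28270 3.01, AT3G62550 2.95, AT4G16146 2.93, LHCB4.2 -2.43, AT5G35970 -2.38, AT1G73480 -2.37, AT2G41250 -2.37, AT1G61500 -1.92 and AT1G69570 -1.71.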

How the results depend on the processing

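The count of probe sets called between dawn and dusk under nicotinamide was 0. It was also 0 with a pseudocount of 1, no filter, an adjusted p under 0.01, or either cycle by itself. It was 29 with quantile normalization, 16 with a pseudocount of 64, 27 with the upper 40% of probe sets, 11 without an intensity trend, 11 without probe sets shared between transcripts, 27 with the cycle as a term, 118 with 12 means and 800 with 36 means. With array weights, chosen after seeing the data, it was 157. Leaving out each array gave 0 to 48, where 48 was without 85 h replicate 2 and 1 without 61 h replicate 2. With a replicate block the count was 36. Among the calls for named genes between conditions, the block changed that of AT1G61500 against untreated, which then passed.

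The difference from untreated seedlings, 648, was 378 at an adjusted p under 0.01, 1198 with 36 means and 1218 with array weights; leaving out each array gave 514 to 895, and the replicate block 770. The difference from toc1-1, 280, was 117, 738 and 634 in the same order; leaving out each array gave 185 (without 49 h replicate 2) to 488 (without 85 h replicate 2), and the replicate block 337. A spread for each condition, also chosen later, gave 636 and 236. Untreated seedlings, 1771, had 1052 at an adjusted p under 0.01, and toc1-1, 342, had 86 there and 138 with no filter. The cause of these shifts was not tested.

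Of 1336 values of named genes within nicotinamide, 174 passed only under an alternative, and none of the called differences between conditions changed sign under the alternatives run. Calls of PWD against untreated were lost on leaving out 49 h replicate 1, 49 h replicate 2, 61 h replicate 2 or 73 h replicate 1 (adjusted p 0.0708 to 0.0838) and with no filter. UGT71B1 was lost without 49 h replicate 2 or either 61 h array and with quantile normalization, and UF3GT with a pseudocount of 1. AT1G61500 against toc1-1 was lost without 49 h replicate 2 or 61 h replicate 2. GI against untreated passed without 49 h replicate 1 (adjusted p = 0.0145), with quantile normalization, with 36 means and with array weights. COR15A passed without 61 h replicate 2, AT1G77640 and AT4G39670 without 73 h replicate 2.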
